A study of Homo sapiens with 12 samples.

Results

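Interferon regulatory factors (IRFs) and signal transducers and activators of transcription (STATs) are the DNA-binding factors that carry interferon, cytokine and pathogen signals to the genome, and 7 of them are described here: IRF1, IRF2, IRF3, IRF7, IRF9, STAT2 and STAT3. They were chosen by name, found by their Ensembl identifiers in the gene count tables, and make up 7 of the 60669 identifiers counted in each of the 12 libraries. The rule names genes and uses no measured value, but the genes were proposed with earlier results of these data known. All 7 were among the 16695 genes kept by a filter on low counts, IRF9 only through the SIK3-named libraries, in which it was higher, so it is left out of the counts of members below and its values are a description.

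The cells were PANC-1, an established line from a human pancreatic ductal adenocarcinoma, grown in DMEM with serum, reverse transfected for 72 h with 1 siRNA sequence against the kinase SIK3 (called AS1 in the titles) or with a control siRNA, and given recombinant human TNF at 100 ng/mL for 30 min or 4 h, or none. Each of the 6 conditions has 2 libraries, numbered replicate 1 and replicate 2 in the labels. The condition of a library is given once in its title and once in the words of its submitters' table name, and these disagree for 8 of the 12 libraries, that is 4 of the 6 groups. Here the conditions are read from the table names: SIK3 siRNA with no TNF (marked CLM, taken as no TNF because it is the remaining condition), SIK3 siRNA with TNF for 30 min, SIK3 siRNA with TNF for 4 h, and the same 3 for the control siRNA Scr1. In the titles these same 6 pairs of libraries are, in that order, SIK3 siRNA with TNF for 30 min, control with TNF for 4 h, SIK3 siRNA with TNF for 4 h, control unstimulated, SIK3 siRNA unstimulated, and control with TNF for 30 min. The pairs themselves are the same under both readings, so a level given below for a pair of libraries holds under either, and what changes is the name of the comparison. The libraries are called SIK3-named and Scr1-named throughout for that reason.

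The targeted gene was read first as a check of the labels. SIK3 mRNA lay between 16.3 and 24.0 CPM (counts scaled to library size, with TMM factors) in the 6 SIK3-named libraries and between 34.3 and 68.7 CPM in the 6 Scr1-named libraries, which do not overlap. The mean log2 difference was -1.29, with a two-sided p of 0.00217 in an exact permutation test over 6 against 6 libraries. This is the smallest p that the test can give. It permuted the 12 libraries freely, ignoring TNF time and replicate number, so it does not treat 6 independent replicates. SIK3 was at 34.3, 42.5 and 34.4 CPM in Scr1-named replicate 1 at the 3 times in order. In replicate 2 it was at 60.4, 68.7 and 65.2 CPM. Grouped by the titles, the same libraries gave a log2 difference of -0.35 and an exact permutation p of 0.431, and the ranges overlapped, from 16.3 to 68.7 CPM in libraries titled SIK3 siRNA and from 17.3 to 65.2 CPM in those titled control. Gene counts per library totalled 13535825 to 22699756. Reads mapped to several places made up 4.94 to 45.3% of a library, more in every replicate 2 than in its replicate 1, and reads outside annotated genes made up 16.5 and 17.1% in the 2 SIK3-named libraries at 4 h against 8.35 to 10.5% in the other 10. The part of these shares in the results was not tested. All 7 epithelial and PANC-1 markers reached 1 CPM, summing to 6666 to 8590 CPM in SIK3-named and 9229 to 10340 CPM in Scr1-named libraries. None of 8 immune markers did (2 had no count at all, and the summed level was at most 0.768 CPM), and none of 4 endothelial markers did (at most 1.32 CPM). Fibroblast markers, of which 4 of 5 reached 1 CPM, summed to 24.0 to 37.7 CPM in SIK3-named and 16.3 to 20.0 CPM in Scr1-named libraries, and their part in the results was not tested. In bulk RNA, fewer cells expressing a gene and less of its RNA per cell cannot be told apart.

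As background, IRF3 and IRF7 are phosphorylated after nucleic acid sensing and switch on interferon genes. Secreted type I and type III interferons act through JAK kinases to assemble ISGF3, a complex holding STAT2 and IRF9 that binds interferon-stimulated response elements. IRF1 is an activator that is itself induced by interferon gamma and by TNF, the second through NF-kB, and IRF2 binds the same elements as IRF1 and is known mainly as its antagonist. STAT3 carries signals of the IL-6 family through the receptor gp130 and is often active in pancreatic cancer.

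IRF1 was the member that changed with TNF at both times, so its promoter is shown. The 225 bases upstream of the gene come from RefSeq (GRCh38.p14, chr5:132490799-132491023, minus strand, written 5′ to 3′ on the strand of the gene), and capitals mark the 2 motif matches found in them.
IRF1 promoter: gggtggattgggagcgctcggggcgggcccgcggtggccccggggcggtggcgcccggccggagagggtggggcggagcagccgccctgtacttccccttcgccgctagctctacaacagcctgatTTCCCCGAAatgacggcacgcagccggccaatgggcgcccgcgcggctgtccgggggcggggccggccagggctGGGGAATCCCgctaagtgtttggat
The first match in capitals, TTCCCCGAA, fits the GAS motif TTCNNNGAA, the type of site bound by STAT dimers, and lies 99 to 91 bases before the 5′ boundary of the gene in GENCODE 29, where the printed stretch ends. The second, GGGGAATCCC, fits the kappaB motif, the type of site bound by NF-kB, and lies 25 to 16 bases before that boundary. The RefSeq start of transcription is 25 bases further inside the gene. No ISRE (GAAANNGAAA) was found in the window. Searched on both strands in the 250 bases before the RefSeq start of 35116 promoters, GAS was held by 6.57% of them, kappaB by 9.96% and ISRE by 3.02%, so a match describes the letters and is not evidence of binding. RefSeq promoter entries were also matched for IRF9, STAT2 and STAT3. The IRF9 window held 1 GAS match, TTCTGGGAA, 63 to 55 bases before its RefSeq start, which lies inside the gene as GENCODE 29 draws it: 212 of the 250 bases of that window, the match among them, are within the GENCODE gene. The STAT2 and STAT3 windows, which have 48 and 126 bases within the GENCODE gene, held no match to the 3 motifs.

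Per kilobase of exon, which is the scale on which genes can be compared, IRF1 and STAT3 averaged 35.1 and 33.7 CPM per kb over the 12 libraries, but their order depended on the condition. STAT3 lay between 25.6 and 40.9 CPM per kb in the 6 groups and IRF1 between 7.75 and 102, and IRF1 was above STAT3 in the Scr1-named groups at 30 min and 4 h and below it in the other 4. In SIK3-named libraries with no TNF IRF1 was also below STAT2, at 7.75 against 9.67 CPM per kb. Over the 12 libraries IRF2 averaged 8.18 CPM per kb, STAT2 7.87, IRF7 4.20, IRF3 3.68 and IRF9 0.182. IRF1 also spanned the widest range, its highest group mean being 13.2 times its lowest, against 1.60 times for STAT3, 1.62 for STAT2 and 1.82 for IRF3.

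**Figure D1:**
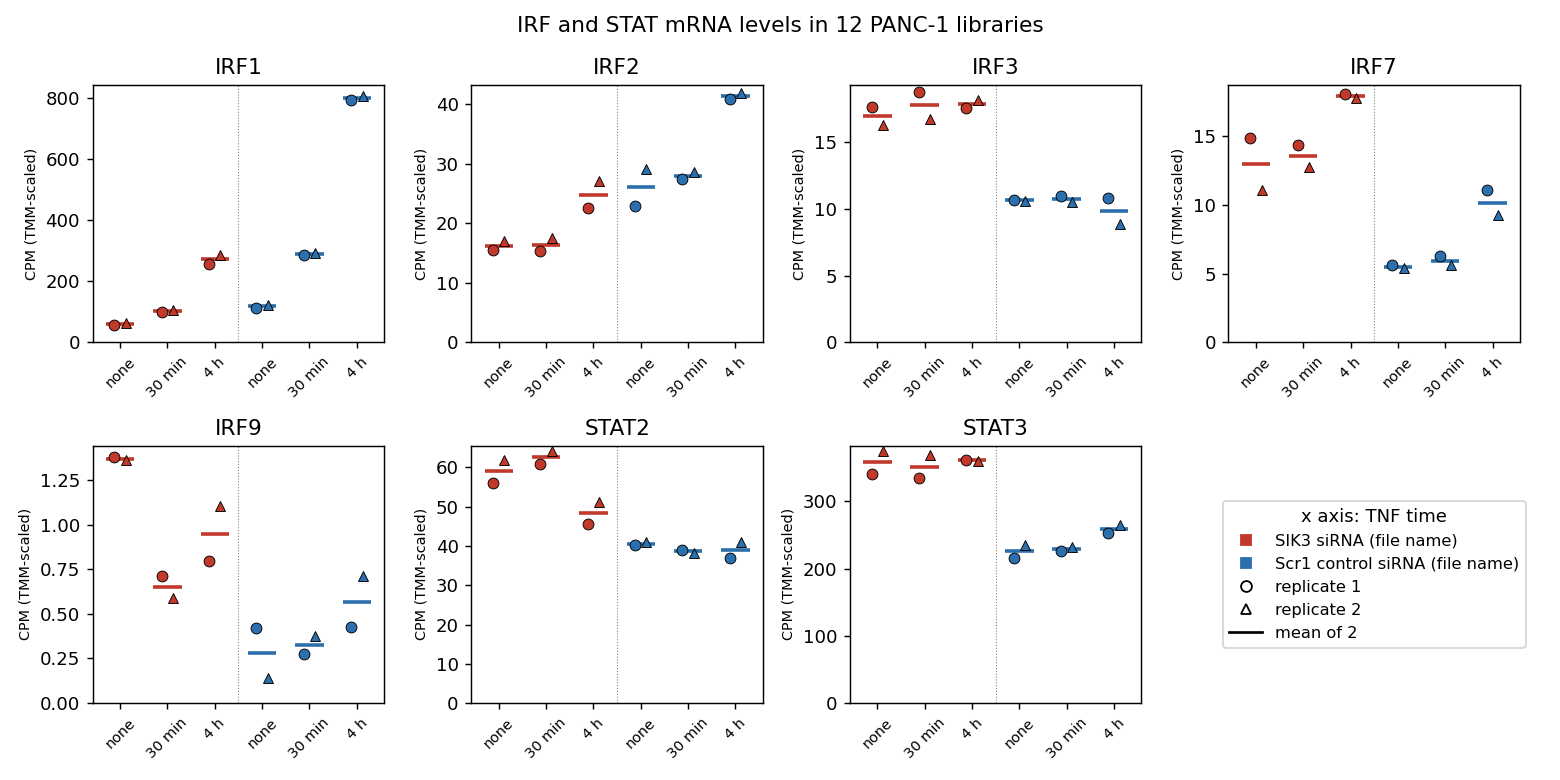
CPM (scaled by TMM, linear axis from 0) of the 7 members in each library, SIK3-named libraries in red at left and Scr1-named libraries in blue at right, by TNF time; circles are replicate 1, triangles replicate 2, and lines the mean of 2. IRF1 and IRF2 sit lower in the red groups at each time, IRF1 climbs with TNF time under both siRNAs, and the other 5 sit higher in red.

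At each TNF time the members split the same way between the siRNAs. With no TNF, 6 of the 6 members other than IRF9 differed between SIK3-named and Scr1-named libraries at an adjusted p under 0.05, 4 higher and 2 lower, where 38.6% of all genes tested did (18.9% higher and 19.8% lower). At 30 min it was again 6 of 6, 4 higher and 2 lower, against 37.8% of all genes. At 4 h the count was the same, against 39.5% of all genes (19.6% higher and 19.9% lower). IRF1 and IRF2 were the lower ones each time. Over 35% of reads mapped to several places in replicate 2 of 3 groups: Scr1-named with no TNF, Scr1-named at 4 h and SIK3-named with no TNF. A fit without these libraries leaves a single library in each of those groups. Calls lost in that fit therefore cannot be assigned to multimapping rather than to fewer libraries. Without the 3 libraries in which over 35% of reads mapped to several places, a check added after seeing the data, 4 of 6 members differed with no TNF, where 20.3% of all genes did, since IRF2 (adjusted p 0.0815) and STAT2 (0.067) no longer passed.

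**Figure D2:**
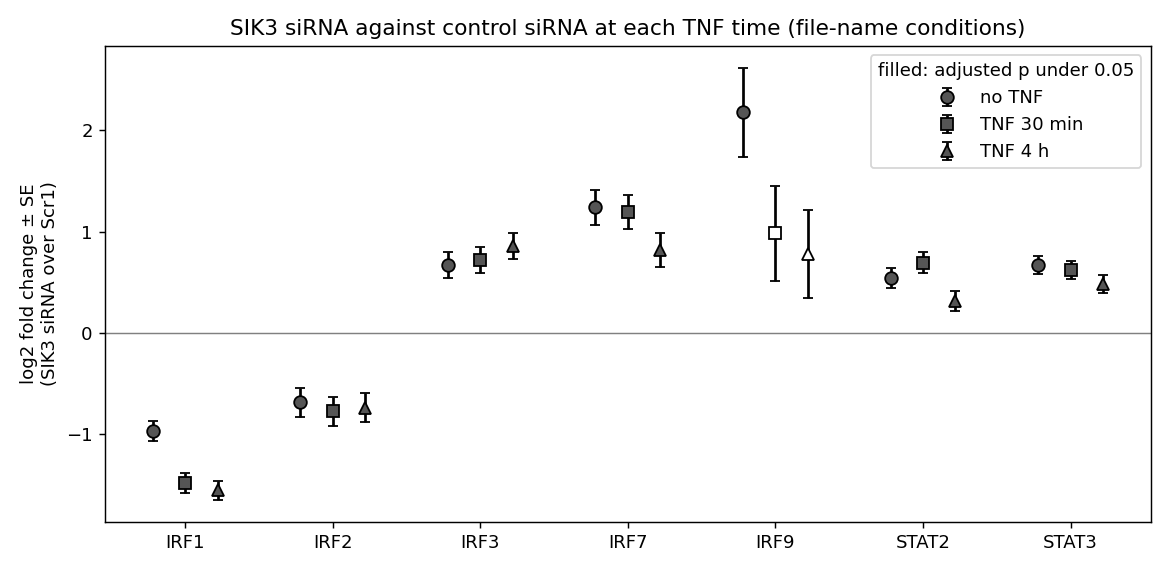
Log2 fold change of each member in SIK3-named over Scr1-named libraries with its standard error (SE), with no TNF (circles), TNF for 30 min (squares) and TNF for 4 h (triangles); filled symbols have an adjusted p under 0.05. IRF1 and IRF2 lie below 0 and the others above it, and IRF9, which passed the filter only through SIK3-named libraries, has the widest errors.

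IRF1 (chromosome 5, positions 132481609 to 132490798 on GRCh38, minus strand) was lower in SIK3-named libraries at every time. It had 56.6 and 64.3 CPM in SIK3-named against 114 and 123 CPM in Scr1-named libraries with no TNF. At 30 min it had 99.3 and 107 CPM in SIK3-named against 285 and 291 CPM in Scr1-named libraries. After 4 h it had 258 and 287 CPM in SIK3-named against 792 and 805 CPM in Scr1-named libraries. The 2 siRNAs did not overlap at any time, and the spread between replicates was small beside the gap. The log2 fold change was -0.97 with no TNF (SE 0.10, adjusted p 4.5e-05), -1.48 at 30 min (SE 0.10, adjusted p 3.9e-06) and -1.55 at 4 h (SE 0.10, adjusted p 5e-06). At 4 h this is a level 2.93 times lower. The order of group means was Scr1-named at 4 h (799 CPM), Scr1-named at 30 min (288), SIK3-named at 4 h (272), Scr1-named with no TNF (118), SIK3-named at 30 min (103) and SIK3-named with no TNF (60.5), and of these neighbours only the second and the third overlapped. The antisense gene IRF1-AS1, which shares 1716 exon bases with it, had 802 counts in all against 53264 for IRF1, and the strand setting of the counting is not given in the sources used here.

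IRF2 (chromosome 4, positions 184387713 to 184474580, minus strand) was also lower in SIK3-named libraries at every time. With no TNF it had 15.4 and 17.0 CPM in SIK3-named against 22.9 and 29.1 CPM in Scr1-named libraries. At 30 min the SIK3-named libraries had 15.4 and 17.5 CPM and the Scr1-named ones 27.4 and 28.6 CPM. At 4 h the SIK3-named libraries had 22.5 and 27.1 CPM and the Scr1-named ones 40.9 and 41.9 CPM. None of these pairs of groups overlapped. The log2 fold changes were -0.68 (SE 0.15, adjusted p 0.0046), -0.77 (SE 0.14, adjusted p 0.0023) and -0.74 (SE 0.14, adjusted p 0.0028) at the 3 times in order.

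IRF3 (chromosome 19, positions 49659569 to 49665875, minus strand), the constitutively present effector of nucleic acid sensing, was higher in SIK3-named libraries. It had 17.6 and 16.3 CPM in SIK3-named against 10.7 and 10.6 CPM in Scr1-named libraries with no TNF. At 30 min the values were 18.8 and 16.7 CPM in SIK3-named against 10.97 and 10.55 CPM in Scr1-named libraries, and at 4 h 17.6 and 18.1 CPM in SIK3-named against 10.8 and 8.86 CPM in Scr1-named ones. The 6 SIK3-named libraries all lay above the 6 Scr1-named ones, and no TNF comparison of it was called. Log2 fold changes were 0.67 (SE 0.13, adjusted p 0.0027), 0.72 (SE 0.13, adjusted p 0.0018) and 0.86 (SE 0.13, adjusted p 0.00074) at the 3 times. IRF3 shares 734 of its 3794 exon bases with BCL2L12 on the opposite strand, which had 2739 counts in all against 3004 for IRF3. Without a known strand setting, how reads in the shared bases were counted is not known.

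IRF7 (chromosome 11, positions 612553 to 615999, minus strand), the interferon-inducible partner of IRF3 that amplifies interferon production, was higher in SIK3-named libraries as well. With no TNF it had 14.9 and 11.1 CPM in SIK3-named against 5.60 and 5.44 CPM in Scr1-named libraries. At 30 min it had 14.4 and 12.8 CPM in SIK3-named against 6.25 and 5.62 CPM in Scr1-named libraries. After 4 h it had 18.1 and 17.8 CPM in SIK3-named against 11.1 and 9.25 CPM in Scr1-named libraries. The siRNAs did not overlap at a given time. Log2 fold changes were 1.24 (SE 0.17, adjusted p 0.00038), 1.19 (SE 0.17, adjusted p 0.00044) and 0.82 (SE 0.17, adjusted p 0.0037).

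IRF9 and STAT2, both subunits of ISGF3, differed greatly in how well they were measured. IRF9 (chromosome 14, positions 24161053 to 24166565, plus strand), the subunit that gives ISGF3 its DNA specificity, had 149 counts over all 12 libraries, between 2 and 33 in each. It shares 1838 of its exon bases with another gene on the same strand, ENSG00000259529, and reads that fall in both are set aside as ambiguous, so its level here is not the abundance of its mRNA. It was listed at 1.38 and 1.36 CPM in SIK3-named against 0.423 and 0.141 CPM in Scr1-named libraries with no TNF, a fitted log2 fold change of 2.17 (SE 0.44). At 30 min the values were 0.713 and 0.588 CPM in SIK3-named against 0.274 and 0.375 CPM in Scr1-named libraries (log2 fold change 0.98, SE 0.47). At 4 h they were 0.796 and 1.10 CPM in SIK3-named against 0.425 and 0.712 CPM in Scr1-named libraries (log2 fold change 0.78, SE 0.43). The groups were apart at each time, but since the filter kept IRF9 through its higher group no test of these differences is read. The Scr1-named libraries with no TNF held 8 and 2 counts, and 3 counts, the floor for a library, correspond to 0.132 to 0.222 CPM.

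STAT2 (chromosome 12, positions 56341597 to 56360155, minus strand), the ISGF3 subunit that holds the transactivation domain, was higher in SIK3-named libraries. With no TNF it had 56.1 and 62.0 CPM in SIK3-named against 40.1 and 40.9 CPM in Scr1-named libraries. At 30 min it had 61.0 and 64.2 CPM in SIK3-named against 39.1 and 38.3 CPM in Scr1-named libraries, and at 4 h 45.5 and 51.3 CPM in SIK3-named against 36.9 and 41.0 CPM in Scr1-named ones. The siRNAs were apart at each time and closest at 4 h. The log2 fold change was 0.54 with no TNF (SE 0.10, adjusted p 0.0023) and 0.69 at 30 min (SE 0.10, adjusted p 0.00053). After 4 h it was 0.31 (SE 0.10, adjusted p 0.034), and this call was lost without Scr1-named replicate 1 at 4 h (log2 fold change 0.22, adjusted p 0.24), without SIK3-named replicate 2 at 4 h (0.22, adjusted p 0.22), with no filter on low counts (adjusted p 0.20) and by DESeq2 (adjusted p 0.14).

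STAT3 (chromosome 17, positions 42313324 to 42388568, minus strand) was higher in SIK3-named libraries too. It had 341 and 375 CPM in SIK3-named against 216 and 235 CPM in Scr1-named libraries with no TNF. At 30 min the values were 334.9 and 368.5 CPM in SIK3-named against 226.5 and 231.8 CPM in Scr1-named libraries, and at 4 h 361.5 and 360.1 CPM in SIK3-named against 252.5 and 265.1 CPM in Scr1-named ones. The highest Scr1-named library lay below the lowest SIK3-named one. Log2 fold changes were 0.67 (SE 0.09, adjusted p 0.00027), 0.62 (SE 0.09, adjusted p 0.00043) and 0.48 (SE 0.09, adjusted p 0.002).

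TNF was then compared with no TNF under each siRNA. These comparisons share their no-TNF libraries with each other and with the siRNA comparison above. At 30 min, IRF1 was the 1 member called in SIK3-named libraries, where 0.15% of all genes were called, and the 1 member called in Scr1-named libraries, where 0.294% were. At 4 h against no TNF, 2 members were higher in SIK3-named libraries (IRF1 and IRF2), where 4.42% of all genes were called, 3.65% higher and 0.767% lower. In Scr1-named libraries 3 members were higher at 4 h (IRF1, IRF2 and IRF7), where 8.99% of all genes were called, 5.53% higher and 3.46% lower. Between 30 min and 4 h, IRF1 and IRF2 were called in SIK3-named libraries (7.08% of all genes) and IRF1, IRF2 and IRF7 in Scr1-named libraries (11.1% of all genes). Once replicate number was added as a blocking factor, the counts at 4 h against no TNF were 4 in SIK3-named and 4 in Scr1-named libraries, where that fit called 21.8% and 23.5% of all genes, and at 4 h against 30 min 4 and 4, where it called 27.8% and 28.1%.

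IRF1 was higher after TNF at both times under both siRNAs. In SIK3-named libraries TNF gave a log2 fold change of 0.77 at 30 min (SE 0.10, adjusted p 0.015), 0.81 within replicate 1 and 0.73 within replicate 2, and 2.17 at 4 h (SE 0.10, adjusted p 2.6e-05). In Scr1-named libraries it gave 1.28 at 30 min (SE 0.10, adjusted p 0.00035) and 2.76 at 4 h (SE 0.10, adjusted p 9.3e-07), which is 6.75 times the level with no TNF. All of these groups were apart. The SIK3-named call at 30 min was lost without any one of its 4 libraries (log2 fold change 0.68 to 0.86, adjusted p 0.062 to 0.24), and the calls at 4 h were kept in each such fit. Fitted on only the 4 libraries compared, the 30 min calls had adjusted p values of 0.78 in SIK3-named and 0.051 in Scr1-named libraries. The response in SIK3-named minus that in Scr1-named libraries was -0.51 on the log2 scale at 30 min (SE 0.13, adjusted p 1) and -0.58 at 4 h (SE 0.13, adjusted p 0.077). With the replicate block the same differences had adjusted p values of 0.0011 and 1.5e-05, and at 4 h DESeq2 gave 0.0072 (the shares of all genes called were 0.264% and 12% with the block, and 2.57% by DESeq2). Over all genes, edgeR called 0.0% at 30 min, where 317 genes had an unadjusted p under 0.05, the block called 44 genes and DESeq2 3. For the 4 h difference it called 1.56% of all genes, and none of the members: of these IRF1 had an unadjusted p under 0.05.

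**Figure D3:**
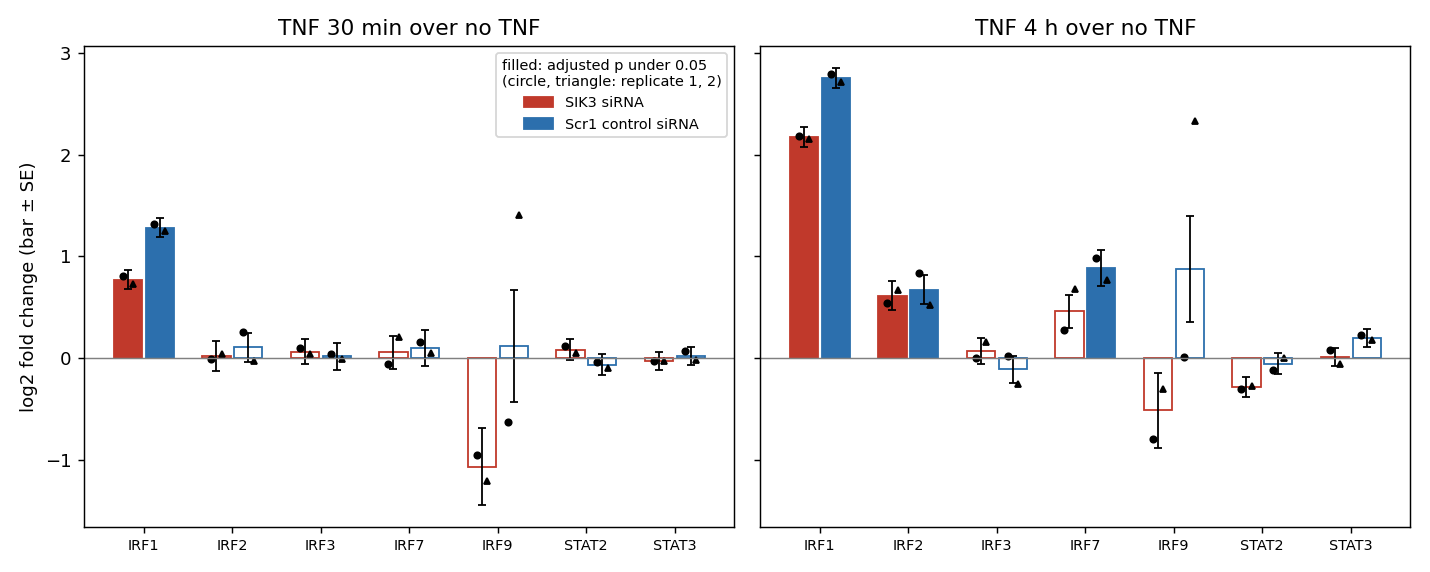
Log2 fold change of each member with TNF for 30 min (left) and 4 h (right) over no TNF, in SIK3-named (red) and Scr1-named (blue) libraries; bars are the fitted values with SE, filled where the adjusted p is under 0.05, and circles and triangles are replicate 1 and replicate 2. IRF1 bars are the tallest in both panels, IRF2 rises at 4 h only, and the IRF9 replicates scatter widely.

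IRF2 showed no called change at 30 min, with log2 fold changes of 0.02 in SIK3-named and 0.11 in Scr1-named libraries. At 4 h it rose by a log2 fold change of 0.62 in SIK3-named (SE 0.15, adjusted p 0.046) and 0.67 in Scr1-named libraries (SE 0.14, adjusted p 0.016). The SIK3-named call was lost without any one of its libraries (log2 fold change 0.47 to 0.71). The Scr1-named call was lost without replicate 1 with no TNF (0.51, adjusted p 0.14), replicate 1 at 4 h (0.69, adjusted p 0.076) or replicate 2 at 4 h (0.64, adjusted p 0.082). Against 30 min, IRF2 rose at 4 h by 0.60 in SIK3-named and 0.56 in Scr1-named libraries, and leaving out any library of either comparison lifted the adjusted p above 0.05 (to 0.069 to 0.26 and 0.13 to 0.20). IRF2 thus kept its direction in each of these fits, and its difference between the responses was -0.06 (SE 0.20).

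IRF7 rose at 4 h in Scr1-named libraries, with a log2 fold change of 0.88 over no TNF (SE 0.17, adjusted p 0.012) and 0.78 over 30 min (SE 0.17, adjusted p 0.017). The first of these calls was lost without Scr1-named replicate 1 with no TNF (0.90, adjusted p 0.066), replicate 2 with no TNF (0.86, adjusted p 0.068) or replicate 1 at 4 h (0.74, adjusted p 0.091). The second was lost without replicate 1 at 30 min (0.84, adjusted p 0.071), replicate 2 at 30 min (0.70, adjusted p 0.12) or replicate 1 at 4 h (0.64, adjusted p 0.13). In SIK3-named libraries, which started from a higher level, IRF7 had log2 fold changes of 0.46 (SE 0.16, adjusted p 0.18; with the block 0.0045) and 0.40 (SE 0.16, adjusted p 0.19; with the block 0.007). The difference between the responses at 4 h was -0.42 (SE 0.24, adjusted p 0.61), so the 2 responses were not shown to differ.

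STAT2 had log2 fold changes at 4 h of -0.29 over no TNF (SE 0.10, adjusted p 0.18; with the block 0.0055) and -0.37 over 30 min (SE 0.10, adjusted p 0.06; with the block 0.00036) in SIK3-named libraries. In Scr1-named libraries the same changes were -0.06 and 0.01. STAT3 had 0.01 over no TNF in SIK3-named and 0.20 in Scr1-named libraries (SE 0.09, adjusted p 0.25; with the block 0.0063). IRF3 lay between -0.13 and 0.07 in the 6 TNF comparisons, none of them called, and IRF9 between -1.07 and 0.88. The interval of the IRF9 values is wide, its SE reaching 0.55.

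Read by the titles, the same pairs of libraries answer to other names. The pair that the titles give as SIK3 siRNA over control with no TNF is the Scr1-named 30 min comparison above, with IRF1 as its 1 called member. The title comparison at 4 h is the SIK3-named 4 h over 30 min comparison, and the title TNF response of control cells at 30 min is the Scr1-named 4 h response. The other 4 title comparisons set SIK3-named against Scr1-named libraries. At 30 min of TNF the titles' SIK3 siRNA over control called 5 of the 6 members other than IRF9 (42.5% of all genes), with IRF1 at -3.72 (SE 0.10) and IRF2 at -1.35 (SE 0.15). The titles' TNF response of control cells at 4 h called 5 of 6 (37.9% of all genes), and IRF1 was not among them, at -0.20 (SE 0.09, adjusted p 0.13; with the block 0.0035). The titles' TNF responses of SIK3 siRNA cells called 6 of 6 at 30 min (40.1% of all genes), with IRF1 at -2.25 (SE 0.10), and 4 of 6 at 4 h (41.8% of all genes), with IRF1 at -0.08 (SE 0.09, adjusted p 0.54). Under the titles IRF1 therefore was 6.75 times higher after 30 min and not called at 4 h in control cells.

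The other genes of the pathway were counted in 9 lists, chosen with earlier results of these data known. The list counts below stand beside these shares over all genes. With TNF at 4 h, 3.65% rose and 0.767% fell in SIK3-named libraries, and 5.53% rose and 3.46% fell in Scr1-named ones. Between the siRNAs 18.9% were higher and 19.8% lower with no TNF, and 19.6% higher and 19.9% lower at 4 h. Of the other IRF and STAT family genes, 11 were tested. At 4 h over no TNF, 1 was higher in SIK3-named libraries (STAT5A, log2 fold change 1.04, SE 0.13), and 2 were higher and 3 lower in Scr1-named libraries. STAT5A, which signals for prolactin and several interleukins, rose there to 203 CPM at 4 h, against 38.8 CPM with no TNF (log2 fold change 2.38, SE 0.13). IRF5, a further effector of pattern recognition receptors, rose by 2.79 (SE 0.25), and IRF2BPL fell by 1.33 on the log2 scale (SE 0.15). With no TNF, SIK3-named libraries had 5 of the 11 higher than Scr1-named ones, IRF5 (1.78, SE 0.26) among them, and 2 lower. With TNF for 4 h these were 2 higher and 1 lower, the lower one being STAT5A (-1.11, SE 0.13).

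Among the ligands, 7 of 16 were tested. In Scr1-named libraries 5 rose at 4 h, the type III interferons IFNL1 (25.1 against 2.37 CPM, log2 fold change 3.43, SE 0.28), IFNL2 and IFNL3 and the IL-6 family members LIF and CLCF1. In SIK3-named libraries CLCF1 was the 1 that rose, and IFNL1 had 3.47 CPM at 4 h against 2.54 CPM with no TNF (log2 fold change 0.49, SE 0.29, adjusted p 0.47). The CLCF1 call was lost when only the libraries compared were fitted, which left 0 ligands rising there (1.7% of all genes called). In SIK3-named against Scr1-named libraries at 4 h IFNL1 was lower (log2 fold change -2.85, SE 0.27, adjusted p 3.9e-05), and IL11, a gp130 cytokine, was higher (3.13, SE 0.35). At that time 1 ligand was higher and 4 lower, where 19.6% of all genes were higher and 19.9% lower. With no TNF 1 was higher, where 18.9% of all genes were. IFNL2 and IFNL3 are near-identical copies whose reads the counting may have split, so their separate values are uncertain.

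Of 19 cytokine receptors and JAK kinases, 4 rose and 1 fell with TNF at 4 h in SIK3-named libraries, and 12 rose in Scr1-named libraries. When only the libraries compared were fitted, 2 rose in SIK3-named and 4 in Scr1-named libraries. That fit called 1.7% and 4.16% of all genes. Scaling by library totals gave 8 rising in Scr1-named libraries, where 9.85% of all genes were called. The interferon receptor chain IFNAR2 rose by 0.85 in SIK3-named (SE 0.14) and 1.78 in Scr1-named libraries (SE 0.15), and the kinase TYK2 by 0.71 (SE 0.09) and 1.27 (SE 0.09). With no TNF, 7 were higher and 3 lower in SIK3-named than in Scr1-named libraries, the higher ones including IL6ST, which encodes gp130 (791 against 305 CPM, log2 fold change 1.37, SE 0.08), and IL10RB, a chain of the type III interferon receptor (2.12, SE 0.17). With TNF for 4 h 4 were higher and 8 lower. Of 16 nucleic acid sensing genes upstream of IRF3 and IRF7, 2 rose with TNF at 4 h in SIK3-named and 5 in Scr1-named libraries. The RNA sensor IFIH1 rose in Scr1-named libraries by 1.58 (SE 0.09), and had 0.36 in SIK3-named libraries (SE 0.09, adjusted p 0.059). IKBKE, the kinase that phosphorylates IRF3 and IRF7 alongside TBK1, was lower in SIK3-named libraries with no TNF (log2 fold change -1.85, SE 0.18) and at 4 h (-2.42, SE 0.17). In all, 4 of these 16 were higher and 6 lower with no TNF, and 2 higher and 8 lower at 4 h. The shares over all genes, also for the receptors and kinases, were 18.9% higher and 19.8% lower with no TNF. At 4 h they were 19.6% and 19.9%.

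Of 16 JAK-STAT inhibitors, 2 rose with TNF at 4 h in SIK3-named libraries, and 3 rose and 1 fell in Scr1-named libraries. SOCS1, which blocks JAK kinases, rose by 2.22 in SIK3-named (SE 0.25) and 3.005 in Scr1-named libraries (SE 0.25), and SOCS3, the feedback inhibitor of gp130, by 0.92 (SE 0.11) and 0.62 (SE 0.11). Between the siRNAs 3 were higher and 1 lower with no TNF, and 4 higher and 2 lower at 4 h. Of 22 STAT3-type target genes, 7 rose with TNF at 4 h in SIK3-named libraries, and 8 rose and 1 fell in Scr1-named libraries. SERPINA3, one of the 22, had 0.186 CPM in SIK3-named and 0.115 CPM in Scr1-named libraries with no TNF. It passed the filter on low counts only through libraries with TNF, so any TNF call of it is a description. Between the siRNAs 4 of the STAT3-type targets were higher and 6 lower in SIK3-named libraries with no TNF, and 5 higher and 7 lower at 4 h. The shares over all genes, also for the inhibitors, were 18.9% higher and 19.8% lower with no TNF, and 19.6% and 19.9% at 4 h. BIRC5, which encodes survivin, had 24.6 CPM in SIK3-named against 142 CPM in Scr1-named libraries with no TNF (log2 fold change -2.52, SE 0.13). The list's median log2 fold change was 0.05 with no TNF and -0.06 at 4 h, beside 0.01 and 0.03 over all genes.

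The ISGF3-type interferon-stimulated genes, 39 of them tested, moved in both directions. With no TNF, 20 were higher and 6 lower in SIK3-named libraries, with a median log2 fold change of 0.60 beside 0.01 over all genes. IFI6, an antiviral protein, had 144 CPM in SIK3-named against 13.7 CPM in Scr1-named libraries (log2 fold change 3.40, SE 0.16), and MX1, an antiviral GTPase, had 97.5 against 11.8 CPM (3.04, SE 0.17). OASL was lower (log2 fold change -1.87, SE 0.20). At 4 h 11 were higher and 13 lower, with a median of 0.08. Over all genes 18.9% were higher and 19.8% lower with no TNF, and 19.6% and 19.9% at 4 h. With TNF at 4 h, 1 rose and 4 fell in SIK3-named libraries, IFI6 (-0.80, SE 0.14) and SAMD9 (-0.63, SE 0.12) among those that fell, and 9 rose in Scr1-named libraries, MX1 (1.38, SE 0.16) among them. The 4 that fell in SIK3-named libraries were 0 when only the libraries compared were fitted, 0 without the 3 libraries with many multimapping reads and 0 to 1 when any 1 library was left out. With the replicate block these counts were 5 higher and 16 lower in SIK3-named and 18 higher and 1 lower in Scr1-named libraries, where 21.8% and 23.5% of all genes were called.

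IRF1-type target genes are those of antigen processing, guanylate binding proteins and chemokines. Of 37 tested, 11 rose with TNF at 4 h in SIK3-named and 27 in Scr1-named libraries, with median log2 fold changes of 0.39 and 1.02, beside 0.00 and -0.03 over all genes. CXCL10, CXCL11 and CIITA were near the floor with no TNF and at 30 min. With no TNF, CXCL10 had 0.233 CPM in SIK3-named and 0.106 CPM in Scr1-named libraries. VCAM1 had 0.165 CPM in SIK3-named and 0.688 CPM in Scr1-named libraries with no TNF. At 30 min it had 0.050 and 0.271 CPM. CXCL10, CXCL11, CIITA and VCAM1 passed the filter on low counts only with the 4 h libraries. Any call of them at 4 h is therefore a description. The 4 h counts of this list include any such calls, and counts without these genes were not made. GBP1, an interferon-inducible GTPase, rose to 54.3 CPM at 4 h, against 18.4 CPM with no TNF, in SIK3-named libraries (1.56, SE 0.11), and to 61.2 CPM, against 11.1 CPM, in Scr1-named libraries (2.46, SE 0.11). Between the siRNAs at 4 h 22 were lower in SIK3-named libraries, with a median of -0.67. The chemokine CCL5 had 39.1 CPM in SIK3-named against 331 CPM in Scr1-named libraries (-3.08, SE 0.17), and APOL6 116 against 280 CPM (-1.27, SE 0.10). With no TNF 9 were higher and 12 lower, with a median of 0.08, HLA-E (0.68, SE 0.09) among the higher and GBP4 (-1.51, SE 0.17) among the lower. Without the 3 libraries with many multimapping reads, the TNF counts were 3 in SIK3-named and 16 in Scr1-named libraries (0.656% and 2.88% of all genes) and the count lower at 4 h was again 22 (28.5% of all genes in either direction). With the block they were 22, 33 and 29, where 21.8%, 23.5% and 58.8% of all genes were called.

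The NF-kB subunits and feedback genes, 18 of them, are direct components and targets of TNF signalling. With TNF at 30 min 3 were higher and 1 lower under each siRNA, where 0.15% of all genes were called in SIK3-named and 0.294% in Scr1-named libraries. The lower one was TRAF1 in both (log2 fold change -1.01, SE 0.09, in SIK3-named and -0.87, SE 0.09, in Scr1-named libraries). With TNF at 4 h 12 rose in SIK3-named libraries (median 0.89) and 14 in Scr1-named libraries (median 1.22). TNFAIP3, the A20 deubiquitinase, rose by 2.45 in SIK3-named (SE 0.17) and 2.85 in Scr1-named libraries (SE 0.17), and NFKBIA, the inhibitor of NF-kB, by 1.84 (SE 0.12) and 2.12 (SE 0.12). In SIK3-named against Scr1-named libraries 1 was higher and 6 lower with no TNF, and 11 were lower at 4 h, TRAF1 (-1.62, SE 0.09) among them. With no TNF 38.6% of all genes were called in either direction, 18.9% higher and 19.8% lower. At 4 h 19.6% of all genes were higher and 19.9% lower.

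Several of these counts depend on the fit, and they are given here by list. The block called more of all genes as well, 58.4% with no TNF and 58.8% at 4 h between the siRNAs, and 21.8% in SIK3-named and 23.5% in Scr1-named libraries for TNF at 4 h. With it, 4 other family genes were higher between the siRNAs at 4 h, and 2 rose and 2 fell with TNF in SIK3-named libraries. Among ligands the block gave 2 higher with no TNF, 3 higher at 4 h and 3 rising with TNF in SIK3-named libraries. Among receptors and kinases it gave 5 lower with no TNF, 7 rising and 3 falling with TNF in SIK3-named and 1 falling in Scr1-named libraries, and among sensing genes 5 rising in SIK3-named and 9 in Scr1-named libraries. Among inhibitors it gave 6 higher and 2 lower with no TNF, 5 lower at 4 h, 1 falling in SIK3-named and 4 falling in Scr1-named libraries. For STAT3-type targets it gave 8 higher with no TNF, 11 rising and 3 falling in SIK3-named and 3 falling in Scr1-named libraries. For the ISGF3-type genes it gave 17 higher at 4 h, and for the NF-kB genes 3 higher and 11 lower with no TNF. Leaving out any 1 library of the comparison left 6 to 7 IRF1-type targets rising in SIK3-named libraries, 1 to 2 receptors and kinases in SIK3-named and 5 to 8 in Scr1-named libraries, 5 to 6 ISGF3-type genes in Scr1-named libraries, and 0 sensing genes in SIK3-named libraries (edgeR; 2 with all libraries by DESeq2). With no TNF it left 6 to 11 IRF1-type targets and 2 to 4 sensing genes lower. The same omissions left 1.21 to 1.55% of all genes called in SIK3-named and 4.87 to 5.24% in Scr1-named libraries for TNF at 4 h, and 27.5 to 29.9% between the siRNAs with no TNF.

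**Figure D4:**
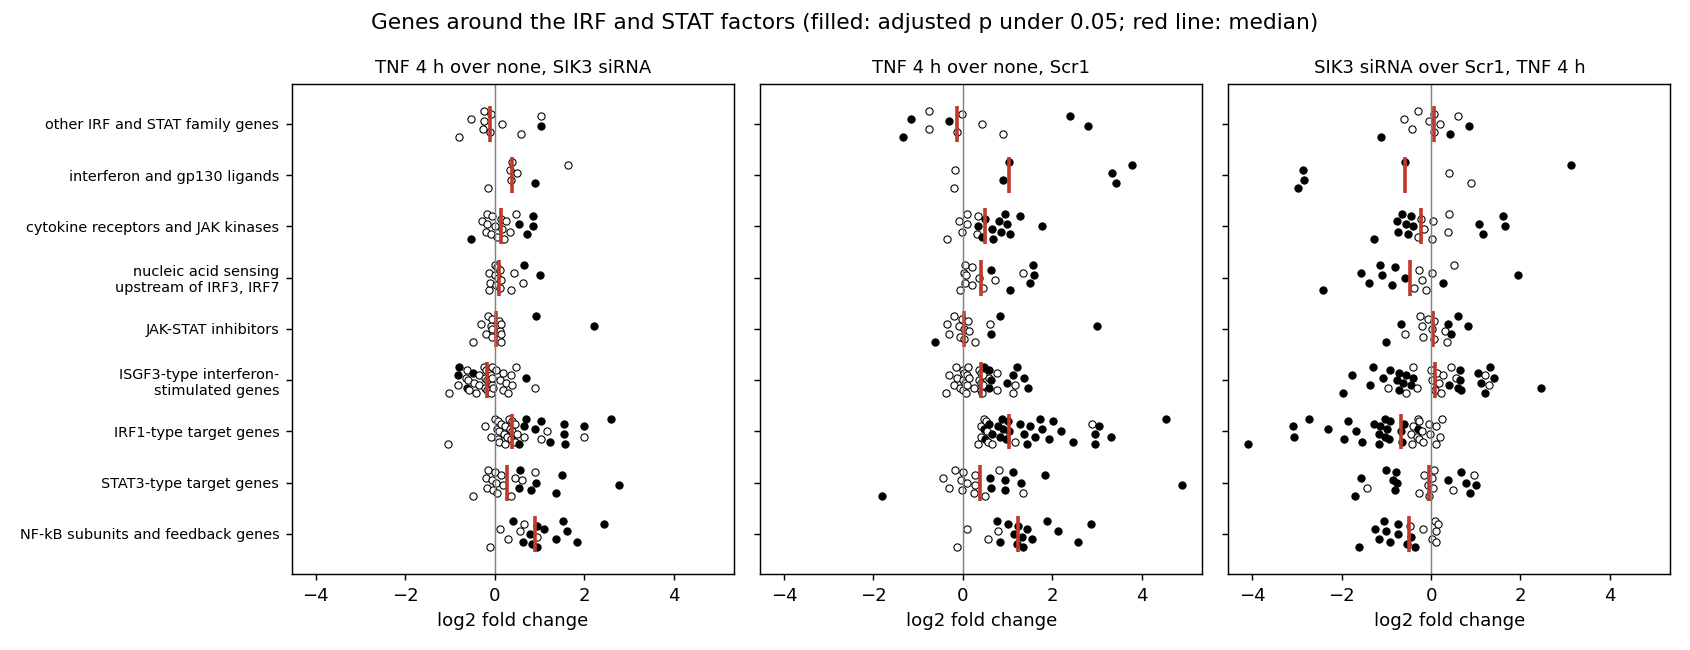
Log2 fold change of each tested gene in the 9 lists, for TNF at 4 h over none in SIK3-named libraries (left) and Scr1-named libraries (middle) and for SIK3-named over Scr1-named libraries at 4 h (right); filled points have an adjusted p under 0.05 and red lines are medians. The IRF1-type targets have medians of 0.39 and 1.02 in the TNF panels and -0.67 in the right one, and the ISGF3-type genes straddle 0 at right.

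The test of the difference between the 2 responses at 4 h, which called 1.56% of all genes in edgeR, 2.57% by DESeq2 and 12% with the block (1996 of 16695), called 6 of the 37 IRF1-type targets (10 by DESeq2, 20 with the block), all with the smaller response in SIK3-named libraries. Of the ISGF3-type genes 4 of 39 were called (6 and 20), of the ligands 3 of 7 (3 and 3), of the other family genes 3 of 11 (3 and 5), of the sensing genes 2 of 16 (2 and 4), of the NF-kB genes 2 of 18 (3 and 11) and of the STAT3-type targets 1 of 22 (3 and 12). Of the receptors and JAK kinases edgeR called 0 of 19 (8 at an unadjusted p under 0.05, 2 by DESeq2, 10 with the block), and of the inhibitors 0 of 16 (1, 1 and 3). These calls were fewer in smaller fits. Of the IRF1-type targets 5 were called with only the libraries compared and 3 to 5 with any 1 library left out, and of the ISGF3-type genes 1 and 1 to 2. Without the 3 libraries with many multimapping reads 0 genes of the 9 lists were called, and 4 of all genes tested. Over all genes the calls fell to 96 with only the libraries compared and to 61 to 116 with any 1 library left out, against 261 in the fit to all libraries. Among those called with all libraries, the largest differences were those of IFNL3 (-3.41, SE 0.64, adjusted p 0.033), IFNL1 (-2.94, SE 0.40, adjusted p 0.0086) and IRF5 (-2.21, SE 0.33, adjusted p 0.014). With no TNF, IFNL3 had 0.724 CPM in SIK3-named and 0.529 CPM in Scr1-named libraries. IRF5 had 2.62 and 0.759 CPM. These differences therefore start from low levels.

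The genes whose levels ran most like each member across the 12 libraries were found by Pearson's r of log2 CPM, as a description over libraries that share depth and condition. RND1 (r = 0.991) was closest to IRF1, with mean levels of 0.358, 0.624 and 2.47 CPM at no TNF, 30 min and 4 h in SIK3-named and 0.944, 3.20 and 7.54 CPM in Scr1-named libraries, followed by TIFA and LINC03025. TRIP10 (r = 0.984), NRARP and CPNE8 were closest to IRF2. EML6 (r = 0.991), LINC02614 and PTPRH were closest to IRF3, RABGEF1 (r = 0.987) and TIMM17B were among the closest to IRF7, and RCE1 (r = 0.959), ARHGAP22 and RBM4 were closest to IRF9. CALCOCO1 (r = 0.990), UBE2D2 and DUSP11 were closest to STAT2, and CDC73 (r = 0.994), TLN1 and SNRNP27 to STAT3. Between members, IRF1 and IRF2 had r = 0.906.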

How the data were processed

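Total RNA of 12 PANC-1 libraries was extracted with RNeasy columns and DNase I and prepared with a ScriptSeq kit, per the labels' protocols. The deposited values are raw counts, whole reads per gene, made by the authors; the submitters' processing notes name STAR 2.05b, edgeR and GRCh38. The strand setting and annotation release are not given in the sources used here. Positions came from GENCODE 29. Names were current gene symbols, or those of GENCODE 29 where there was no current one, and 3742 of 60669 identifiers had no name in either. The members and lists were chosen with earlier results of these data known.

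edgeR 4.0.16 (R 4.3.3) fitted quasi-likelihood models to the counts of all 6 groups (6 residual degrees of freedom), after filterByExpr (minimum count 10) and TMM scaling, with Benjamini-Hochberg adjustment over 16695 genes and a threshold of 0.05. Levels are TMM-scaled CPM. The script was tested on simulated data. Exact permutation used SciPy 1.17.1. Nothing says whether replicates came from separate cultures, so p-values measure the spread between these libraries. Replicate pairs differed by more than sampling noise (chi-square per degree of freedom 16.5 to 33.5). Same-numbered libraries deviated together (r 0.35 to 0.53 in all 15 pairs of groups), so the replicate number was also fitted as a block, which leaves 5 residual degrees of freedom.

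Named genes were the 7 members, the first genes of each list by adjusted p, and the 3 genes most alike each member; 2 of the genes this rule gives are not reported here. Alternatives were the block, DESeq2 1.42.0, its size factors, library totals, no filter, only the libraries compared, and each library left out. Floors cover counting error only.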

Additional observations from a re-analysis of the deposited data

Results flagged for a closer look

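The TNF response of IRF1 was smaller in SIK3-named than in Scr1-named libraries by a test of the difference itself, when the replicate number was fitted as a block: -0.51 on the log2 scale at 30 min and -0.58 at 4 h, in both replicates. Without the block the adjusted p values were 1 and 0.077.

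Genes of the lists also differed in their response at 4 h by that test without the block, with values given as SIK3-named minus Scr1-named responses. The fit without the 3 libraries with many multimapping reads keeps a single library in each group they came from. Its lost calls therefore cannot be assigned to multimapping rather than to fewer libraries. None of them was called without the 3 libraries with over 35% multimapping reads, where 4 of all genes were, and over all genes the calls fell to 96 with only the libraries compared and to 61 to 116 with any 1 library left out, against 261. Among other family genes these were STAT5A (-1.34), IRF5 (-2.21) and IRF2BPL (1.25). Among ligands they were IFNL1 (-2.94), IFNL3 (-3.41) and LIF (-0.70). IFNL3 under both siRNAs and IRF5 in Scr1-named libraries had group means below 1 CPM with no TNF. IFIH1 (-1.21) and DHX58 (-1.41) were the sensing genes. MX1 (-1.83), PARP14 (-0.74), SAMD9L (-0.99) and ISG20 (-1.09) were the ISGF3-type genes. CCL5 (-2.07), HLA-B (-1.28), APOL2 (-0.95), HLA-F (-2.06), APOL1 (-1.39) and GBP1 (-0.91) were the IRF1-type targets. FOS (1.96) was the STAT3-type target, and TRAF1 (-1.04) and CYLD (-0.92) were the NF-kB genes. HLA-B and HLA-F belong to a family of related genes with similar stretches, among which the counting may split some reads. With groups of 2, no test for a library standing apart was made.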

How the results depend on the processing

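No member changed direction where it was called under any alternative tried. The counts of called members with a given siRNA difference were kept within 1.5 times, except that without the 3 libraries with over 35% multimapping reads 4 members were called with no TNF. The counts here include IRF9. The TNF counts moved more. With the replicate block, 4 members were called in SIK3-named libraries at 4 h over none and 4 at 4 h over 30 min, and 1 member in the difference of responses at 30 min and 1 at 4 h; the block ended no call. Fitting only the libraries compared gave 0 at 30 min in SIK3-named and 0 in Scr1-named libraries, 1 and 1 at 4 h over none, and 1 at 4 h over 30 min in SIK3-named libraries. Without the 3 libraries the counts were 0 at 30 min in SIK3-named libraries, 1 and 1 at 4 h over none, and 1 at 4 h over 30 min in SIK3-named libraries. Library totals gave 1 in SIK3-named libraries at 4 h over none. DESeq2's size factors and its Wald test each gave 1 for the difference at 4 h, and the Wald test gave 3 for the titles' TNF 4 h response of SIK3 siRNA cells. The cause was not tested, beyond that fewer libraries leave fewer degrees of freedom. Leaving out 1 library gave 0 to 0 at 30 min in SIK3-named libraries, 1 to 1 in each 4 h comparison of these, 1 to 2 in each 4 h comparison of Scr1-named libraries, and 3 to 5 for the titles' 4 h response of SIK3 siRNA cells; a lone library left in a group is assumed to vary like the others. SIK3 itself had -0.35 by the titles. Of the single values, leaving out 1 library left 438 on the same side of the threshold, with 36 no longer past it and 2 newly past it. With 2 libraries a group, changes of low genes such as IRF9 are poorly resolved, and a miss of the threshold does not show that levels were equal.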
